A study of Mus musculus with 36 samples.

Results

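Glycolysis, the transport of its end product lactate and the glycerol phosphate shuttle were followed through 32 genes of mouse retina and optic nerve. The genes were taken by symbol from a gene count table of 55487 genes, and 32 of 32 were found in it. They are the glucose transporters Slc2a1 and Slc2a3, the enzymes from hexokinase to pyruvate kinase (Hk1, Hk2, Gpi1, Pfkl, Pfkm, Pfkp, Aldoa, Aldoc, Tpi1, Gapdh, Pgk1, Pgam1, Pgam2, Eno1, Eno2 and Pkm), and the regulators Pfkfb2 and Pfkfb3. The remaining members are the lactate dehydrogenase subunits Ldha and Ldhb, the monocarboxylate transporters Slc16a1, Slc16a3 and Slc16a7, the pyruvate dehydrogenase subunit Pdha1 with its kinases Pdk1 to Pdk4, and the glycerol 3-phosphate dehydrogenases Gpd1 and Gpd2.

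Glycolysis splits glucose into pyruvate and yields ATP and NADH. Pyruvate is then either reduced to lactate by lactate dehydrogenase, which regenerates NAD+, or enters the mitochondrion through pyruvate dehydrogenase, which the PDK kinases switch off. Lactate leaves and enters cells through monocarboxylate transporters, and in white matter glial cells are known to pass lactate to axons. The glycerol phosphate shuttle carries the electrons of cytosolic NADH to the mitochondrion, with the cytosolic enzyme Gpd1 and the mitochondrial enzyme Gpd2 as its partners. Photoreceptors are known for strong aerobic glycolysis.

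RNA was sequenced from 36 libraries of C57BL/6 mice, 12 each from retina, the unmyelinated optic nerve head (UON) and the myelinated optic nerve (MON). Every tissue was sampled in naïve mice, in mice 3 days (3D) and 2 weeks (2W) after optic nerve crush, and in mice 3D, 2W and 6W after microbead injection into the eye, which raises eye pressure and is called glaucoma here. The mice were 2 to 4 months old, injury was to 1 eye or nerve, and the labels name no transgene in any group. Each group was 1 library from RNA of 2 female mice and 1 from RNA of 2 male mice, so n = 2 pools, and the spread between pools holds sex, animals and handling together. Naïve mice received no procedure in either eye. All 3 tissues were dissected from each mouse, so the retina, UON and MON pools of 1 sex and 1 treatment share their mice.

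Library totals ran from 16.2 M to 78.1 M estimated counts, and the naïve MON pools differed widely in depth, with 78.1 M in the female and 17.8 M in the male pool. The tissue labels were checked on marker sums in CPM, counts scaled to library size. The 12 oligodendrocyte and myelin markers summed to 122383 to 167239 CPM in the naïve MON pools, 21851 to 28428 in naïve UON, and 106 to 116 in naïve retina. The 10 photoreceptor markers summed to 66293 to 66732 CPM in naïve retina and stayed at or under 364 in every nerve library. The male UON pool 2W after crush stood apart, with 3281 CPM of oligodendrocyte markers against 24762 in its female partner. In whole tissue, fewer cells of a type and less RNA per cell cannot be told apart.

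Pkm is shown first at the level of sequence, because its transcripts carry 1 of 2 alternative exons and the tissues differed in which one. The M1 exon lies at chr9:59675029-59675195 and the M2 exon at chr9:59675568-59675734, both on the plus strand of GRCm38. Each is exon 9 of 11 in its transcript and 167 bases long. They are 61.68% identical without gaps, and capitals mark the 64 bases that differ.
M1 exon: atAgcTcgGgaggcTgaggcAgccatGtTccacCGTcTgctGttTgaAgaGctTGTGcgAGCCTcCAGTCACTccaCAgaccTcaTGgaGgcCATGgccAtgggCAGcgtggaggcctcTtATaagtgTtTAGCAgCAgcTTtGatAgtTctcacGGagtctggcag
M2 exon: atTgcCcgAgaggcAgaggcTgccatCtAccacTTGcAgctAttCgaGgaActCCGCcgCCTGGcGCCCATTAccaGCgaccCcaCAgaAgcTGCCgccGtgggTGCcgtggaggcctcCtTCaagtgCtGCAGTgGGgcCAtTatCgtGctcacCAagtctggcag

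Promoters are shown for Hk2, Ldha and Slc16a3, members with a call in more than 1 comparison and with the core of a hypoxia response element before their start. Other members with more than 1 call, such as Pkm and Pdk2, also had ACGTG in a promoter window, so those shown are examples. The stretches are the 250 bases upstream of a RefSeq start (build GRCm38.p6), written in the direction of transcription, and capitals mark ACGTG on either strand and CACGTG, which holds ACGTG on both. The Hk2 stretch is the minus strand of chr6:82774455-82774704, and those of Ldha (chr7:46845554-46845803) and Slc16a3 (chr11:120948817-120949066) lie on the plus strand, inside longer transcripts of the same genes. ACGTG occurred 2 times in the Hk2 stretch, 5 times in that of Ldha, where 2 CACGTG count on both strands, and 2 times in that of Slc16a3.
Hk2: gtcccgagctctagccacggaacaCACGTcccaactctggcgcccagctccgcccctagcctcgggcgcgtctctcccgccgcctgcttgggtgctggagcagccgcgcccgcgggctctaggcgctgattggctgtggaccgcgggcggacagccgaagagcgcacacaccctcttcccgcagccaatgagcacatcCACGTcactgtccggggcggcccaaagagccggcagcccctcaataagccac
Ldha: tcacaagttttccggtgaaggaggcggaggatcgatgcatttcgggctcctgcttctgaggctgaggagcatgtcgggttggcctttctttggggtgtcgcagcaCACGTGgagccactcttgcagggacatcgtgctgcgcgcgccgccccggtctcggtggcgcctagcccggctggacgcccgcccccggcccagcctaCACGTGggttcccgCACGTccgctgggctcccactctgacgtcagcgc
Slc16a3: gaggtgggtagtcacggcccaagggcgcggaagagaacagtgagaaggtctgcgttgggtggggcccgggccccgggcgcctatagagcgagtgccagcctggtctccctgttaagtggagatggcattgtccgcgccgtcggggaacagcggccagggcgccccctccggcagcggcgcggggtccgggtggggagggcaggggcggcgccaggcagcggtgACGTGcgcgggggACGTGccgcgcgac

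The same windows, with 50 bases after the start added, were at hand for 29 of the 32 members, in 46 windows, and Slc2a3, Slc16a7 and Gpd1 had none in the table. ACGTG or GCGTG, searched on both strands, was present in a window of 25 of 29 members (86.2%), against 46.7% of 27025 genes. ACGTG alone was present for 62.1% of the members and 21.8% of all genes. Members had more windows per gene than all genes, which favours a match. Counted by window, ACGTG or GCGTG was in 76.1% of the 46 member windows and 43.8% of all 32851 windows, and ACGTG alone in 47.8% and 19.6%. Both motifs hold the bases CG, and the members were not matched to all genes for base composition, whose part in these shares was not tested. A match describes these letters and not a bound site.

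In naïve tissue the members were most abundant in retina. They summed to 14471 and 14443 FPKM (the fragment count scaled to transcript length and library size) in the female and male retina pools, 4946 and 5344 in UON, and 3666 and 3648 in MON. As a share of TPM (the same scaled to a fixed sum per library) this was 2.94% and 3.07% in retina, 1.08% and 1.19% in UON, and 0.808% and 0.69% in MON. Over all 12 libraries of a tissue the share ran from 2.52% to 3.35% in retina, from 0.704% to 1.19% in UON and from 0.69% to 1.09% in MON, so the 2 nerve regions overlapped and retina overlapped neither.

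Tests of single genes were made on the counts with edgeR, and called genes are those that changed more than 2-fold (log2 fold change over 1 in either direction) with an adjusted p below 0.05. Against retina, 7 members were called higher and 12 lower in naïve UON, where 31.7% of 23685 genes were called in either direction. In naïve MON 5 members were higher and 16 lower than in retina, with 27.6% of genes called. Between the nerve regions 4 members were higher and 1 was lower in UON than in MON, with 9.63% of genes called (4.83% higher and 4.8% lower). The median log2 fold change of the 32 members was -0.63 for UON against retina and -1.04 for MON against retina, where the medians over all genes were -0.17 and 0.00. For UON against MON the member median was 0.47 and that of all genes was -0.06.

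**Figure D1:**
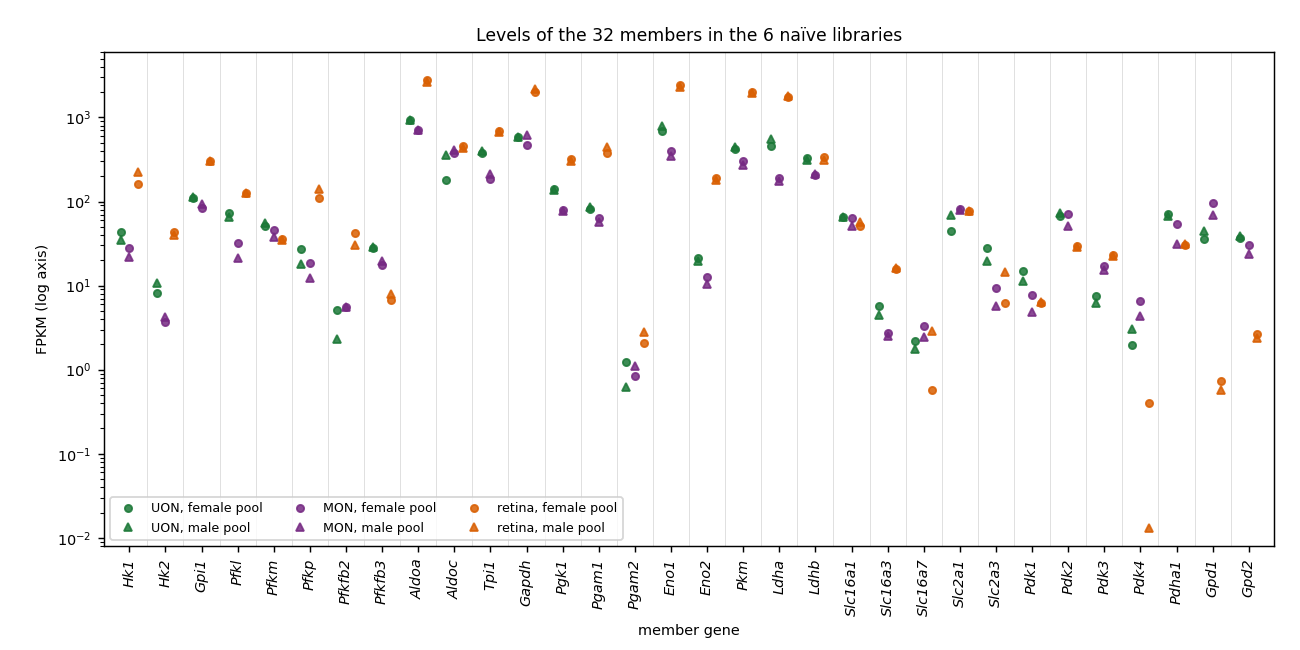
FPKM (log axis) of each of the 32 members in the 6 naïve libraries, with circles for female and triangles for male pools. Retina lay above both nerve regions for most enzymes from Hk1 to Ldha, while Gpd1 and Gpd2 were under 3 FPKM in retina and between 23.7 and 95.5 FPKM in nerve.

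Glucose enters through Slc2a1 (GLUT1, the carrier of the blood-tissue barriers and glia) and Slc2a3 (GLUT3, the neuronal carrier). Slc2a1 had 77.0 and 76.3 FPKM in the naïve retina pools, 80.4 and 78.4 in MON and 44.5 and 69.1 in UON, and was not called in any of the 3 comparisons. Slc2a3 had 28.2 and 19.7 FPKM in UON, 9.47 and 5.79 in MON, and 6.19 and 14.4 in retina. Its UON pools lay above the others, but the log2 fold change of 1.37 against MON (SE 0.57, adjusted p = 0.196) was not called.

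Hexokinase traps glucose as glucose 6-phosphate. Hk1, the form of neurons and red cells, had 161 and 226 FPKM in retina, 43.8 and 35.2 in UON and 28.3 and 21.6 in MON. It was lower in UON (log2 fold change -1.35, SE 0.28, adjusted p = 0.00812) and in MON (-1.96, SE 0.28, adjusted p = 0.00185) than in retina. Hk2, the inducible form, had 43.0 and 39.9 FPKM in retina, 8.09 and 10.8 in UON, and 3.69 and 4.27 in MON. Hk2 was lower in both nerve regions than in retina, by log2 fold changes of -1.80 and -2.97, and was higher in UON than in MON (1.17, SE 0.24, adjusted p = 0.0253). Without the male UON pool this last adjusted p was 0.263, and without the male MON pool it was 0.076. The Hk1 call between UON and retina was lost without the male UON pool (adjusted p = 0.0655) or the male retina pool (0.104).

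Phosphofructokinase is the committed step, and its 3 genes encode the liver (Pfkl), muscle (Pfkm) and platelet (Pfkp) subunits. Pfkp had 111 and 141 FPKM in retina, 27.0 and 18.2 in UON, and 18.6 and 12.2 in MON, with log2 fold changes of -2.19 (SE 0.29) in UON and -2.83 (SE 0.29) in MON against retina, both called. Pfkl had 125 and 127 FPKM in retina, 72.3 and 64.8 in UON, and 32.5 and 21.5 in MON. It was lower in MON than in retina (-1.78, SE 0.26, adjusted p = 0.00189) and higher in UON than in MON (1.32, SE 0.25, adjusted p = 0.0204), but not without the male UON pool (adjusted p = 0.101), and without the male MON pool its log2 fold change fell just under the limit (adjusted p = 0.0362). Pfkm went the other way, with 36.2 and 34.9 FPKM in retina, 51.4 and 54.9 in UON, and 45.6 and 38.4 in MON, and its log2 fold changes against retina of 0.97 in UON and 0.70 in MON stayed under the fold limit. Of the summed FPKM of the 3 genes, Pfkm held a median of 11% in the 12 retina libraries (7.38% to 13.5%), 37.4% in UON (32.9% to 49.5%) and 39.5% in MON (12.5% to 53.2%).

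Pfkfb2 and Pfkfb3 make and degrade fructose 2,6-bisphosphate, the activator of phosphofructokinase, and they had opposite regional patterns. Pfkfb2 had 42.4 and 30.7 FPKM in retina, 5.13 and 2.32 in UON, and 5.59 and 5.54 in MON, and was lower in UON (log2 fold change -2.89) and MON (-2.03) than in retina. Pfkfb3, the glycolysis-promoting form known from astrocytes and endothelium, had 6.74 and 8.04 FPKM in retina, 28.2 and 28.6 in UON, and 17.3 and 19.9 in MON. It was higher than in retina in UON (2.13, SE 0.26, adjusted p = 0.000699) and in MON (1.27, SE 0.25, adjusted p = 0.00761).

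Aldolase, glyceraldehyde 3-phosphate dehydrogenase and enolase are steps of the middle and lower pathway. In the female and male naïve retina pools Aldoa had 2817 and 2668 FPKM, Gapdh 2007 and 2194, and Eno1 2402 and 2319. In UON they had 935 and 927 (Aldoa), 585 and 585 (Gapdh), and 689.6 and 793 (Eno1), and in MON 706 and 701, 472 and 619, and 394 and 346. All 3 were called lower in each nerve region than in retina, by log2 fold changes of -1.17 and -1.50 (Aldoa), -1.46 and -1.44 (Gapdh) and -1.27 and -2.23 (Eno1) in UON and MON. Leaving out 1 pool ended some of these calls. For Aldoa and Eno1 in UON any of the 4 pools did so, with adjusted p of 0.149 to 0.208 and 0.0916 to 0.163. Gapdh was lost in UON without the male UON pool (0.093), the female retina pool (0.0728) or the male retina pool (0.0516), and in MON without the female (0.0778) or the male retina pool (0.0659). Aldoa in MON was lost without the female (0.089) or the male retina pool (0.0927).

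Tpi1, Pgk1 and Gpi1 were intermediate. They were called lower in MON than in retina, by -1.24, -1.54 and -1.26, and were not called in UON, where the log2 fold changes against retina were -0.49, -0.77 and -0.95. In MON the Tpi1 call was lost without the female (adjusted p = 0.0774) or the male retina pool (0.0508) and the Gpi1 call without the female retina pool (0.0661). Pgam1 had 377 and 441 FPKM in retina, 82.2 and 86.9 in UON and 64.0 and 56.3 in MON, and was lower in both, by -1.89 and -2.30. Pgam2, the muscle form, had at most 2.81 FPKM in any naïve library. Eno2, the neuronal enolase, was lower in both nerve regions, with 193 and 181 FPKM in retina, 21.4 and 19.7 in UON and 12.5 and 10.5 FPKM in MON (log2 fold changes -2.83 and -3.59 against retina). Aldoc, the aldolase of astrocytes and some neurons, did not follow Aldoa: it had 461 and 433 FPKM in retina, 376 and 407 in MON, and 181 and 359 in UON, with no call. Retrogene or pseudogene copies that could share reads with members held 6.94% of the member's total count for Pgam1 (Pgam1-ps2), 2.28% for Eno1 (Eno1b) and under 2% each for the others.

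Pkm encodes pyruvate kinase, which makes pyruvate and ATP. It had 2029 and 1949 FPKM in retina, 423 and 443 in UON, and 299.9 and 272 in MON, and was lower in UON (log2 fold change -1.72, SE 0.27, adjusted p = 0.00229) and MON (-2.24, SE 0.27, adjusted p = 0.000801) than in retina. The exon choice differed as well. Transcripts with the M2 exon made up 44.5% and 45.5% of the M1 plus M2 amount, per length, in naïve retina, 80.3% and 79.6% in UON, and 79.5% and 91.5% in MON. Over 12 libraries the M2 share ran from 39.4% to 63.0% in retina, from 78.8% to 88.5% in UON and from 75.4% to 91.5% in MON. All 24 nerve libraries therefore lay above all 12 retina libraries, while the nerve regions overlapped. The share moved with depth in nerve: the 6 nerve libraries under 25 M counts had 87.9% to 91.5% and the other 18 had 75.4% to 87.4%, and the part of depth in it was not tested. The 2 retina pools 2W after crush, with 61.4% and 63.0%, lay above the other 10 retina libraries, which ran from 39.4% to 52.2%. These shares come from StringTie's assignment of reads to transcripts and were described without a test.

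**Figure D2:**
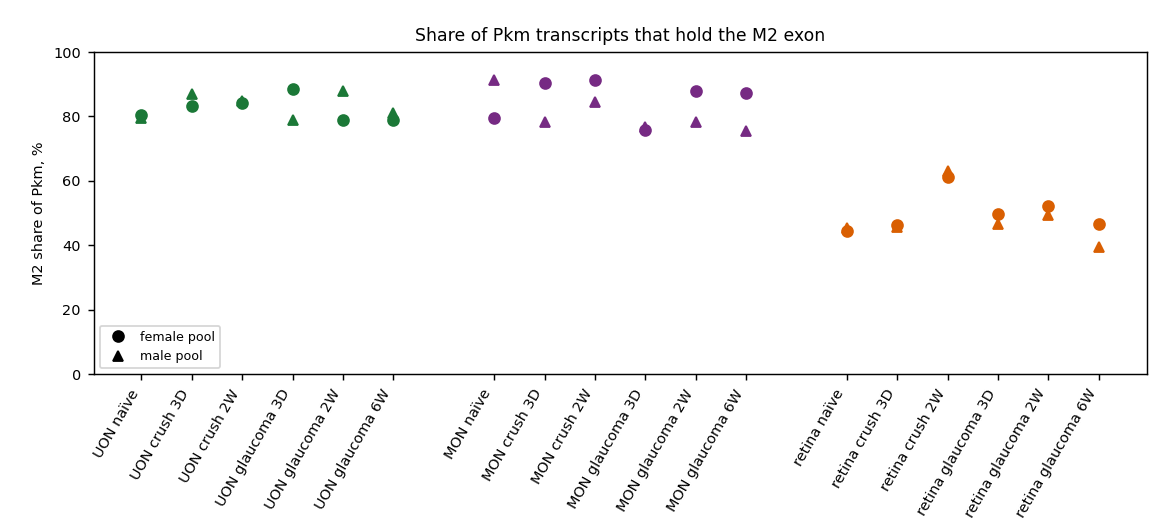
Share (%) of Pkm transcripts that hold the M2 exon, by group, with a circle for the female and a triangle for the male pool (green UON, purple MON, orange retina). The nerve libraries sit between 75.4% and 91.5% and the retina libraries between 39.4% and 63.0%, with the 2 crush 2W pools at the top of retina.

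Ldha and Ldhb encode the M and H subunits of lactate dehydrogenase, of which the M subunit is the form of tissues that make lactate and the H subunit that of tissues that use it. Ldha had 1756 and 1795 FPKM in retina, 453 and 547 in UON, and 192 and 176 in MON. It was lower in MON than in retina (log2 fold change -2.80, SE 0.28, adjusted p = 0.000352) and in UON than in retina (-1.44, SE 0.27, adjusted p = 0.00555), and higher in UON than in MON (1.36, SE 0.27, adjusted p = 0.0226). The UON to retina call was lost without the female UON pool (adjusted p = 0.0772) or either retina pool (0.0546 and 0.0661), and the UON to MON call without the male UON pool (0.296). Ldhb had 336 and 315 FPKM in retina, 329.6 and 314 in UON, and 205 and 212 in MON, and was not called between any 2 tissues. The ratio of Ldhb to Ldha thus differed by tissue within the library: its log2 was between -2.97 and -2.38 in the 12 retina libraries, between -0.83 and -0.13 in UON, and between -2.60 and 0.26 in MON. Only the 2 naïve MON pools had more Ldhb than Ldha, with 0.09 and 0.26.

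Of the lactate carriers, Slc16a1 (MCT1, the carrier of glia and endothelium) had 64.1 and 50.8 FPKM in MON, 65.8 and 64.9 in UON, and 50.9 and 57.2 in retina, with no call. Slc16a3 (MCT4, the low-affinity exporter of glycolytic cells) had 15.8 and 16.1 FPKM in retina, 5.68 and 4.45 in UON, and 2.70 and 2.51 in MON. It was lower in MON than in retina (log2 fold change -1.98, SE 0.26, adjusted p = 0.00112) and higher in UON than in MON (1.11, SE 0.25, adjusted p = 0.0354). The latter call was lost without the female UON pool (adjusted p = 0.145), the male UON pool (0.114) or the female MON pool (0.0698). Slc16a7 (MCT2, the high-affinity carrier of neurons) had 0.572 to 3.28 FPKM in the 6 naïve libraries, with no call.

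At the mitochondrial gate the order of tissues turned round. Pdk4, the kinase of fasting and fatty acid use, had 6.63 and 4.34 FPKM in MON, 1.95 and 3.08 in UON, and 0.401 and 0.013 in retina, and was higher in UON (log2 fold change 5.04, SE 0.95) and MON (5.99, SE 0.96) than in retina, with adjusted p of 0.00573 and 0.00302, although the male retina value rests on 2 counts. Pdk2, the most abundant of the 4 kinases, had 66.4 and 72.2 FPKM in UON, 71.6 and 51.4 in MON, and 29.8 and 28.4 in retina, and was higher than in retina by 1.68 in UON and 1.55 in MON. Pdk1 and Pdha1, the catalytic subunit that the kinases act on, were called higher in UON than in retina (1.36 and 1.58) but not in MON (0.49 and 0.91). Pdk3 was the exception: it had 7.56 and 6.28 FPKM in UON, 17.3 and 15.4 in MON, and 22.9 and 22.4 in retina, and was lower in UON than in either MON (-1.31, SE 0.22, adjusted p = 0.0122) or retina (-1.34, SE 0.22, adjusted p = 0.00298). Against MON its adjusted p was 0.0662 without the male UON pool.

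In the glycerol phosphate shuttle, Gpd1 had the largest log2 fold change against retina of the 32 members in both nerve regions in the reported fit. Over the alternative settings it reached at most 7.75 in MON and 6.74 in UON, and Pdk4 reached up to 9.01 and 7.88. Gpd1 had 95.5 and 69.4 FPKM in MON, 35.7 and 45.0 in UON, and 0.734 and 0.58 in retina. Its log2 fold change against retina was 7.40 (SE 0.37, adjusted p = 3.02e-05) in MON and 6.31 (SE 0.35, adjusted p = 3.24e-05) in UON. Gpd2 had 36.5 and 39.2 FPKM in UON, 30.5 and 23.7 in MON, and 2.69 and 2.38 in retina, with log2 fold changes of 4.07 (SE 0.25) and 3.69 (SE 0.24). Gpd1 is known as an oligodendrocyte and fat cell enzyme. In naïve libraries the 8 adipocyte markers summed to 96.9 to 100.1 CPM in UON, 185 to 224 in MON and 20 to 22.3 in retina, and the 12 skeletal muscle markers to at most 19.2 CPM. Their part and that of the oligodendrocyte sums given above in the level of Gpd1 was not tested.

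Pairs of isozymes can be compared within a library. Scaling between libraries then drops out, apart from the effect of the pseudocount (a constant added to both values), which is largest at low levels. The log2 ratio of Pfkp to Pfkm had a median of 2.04 in retina (1.59 to 2.72 over 12 libraries), -1.12 in UON (-1.87 to -0.09) and -0.69 in MON (-1.58 to 1.12). That of Gpd2 to Gpd1 had a median of 1.09 in retina (0.89 to 1.53), -0.10 in UON (-1.24 to 0.73) and -1.48 in MON (-4.53 to -0.37). Within a library, retina thus held more Gpd2 than Gpd1, and MON more Gpd1 than Gpd2. Both genes were lower in naïve retina than in nerve, and Gpd1 in the 12 retina libraries (0.378 to 0.848 FPKM) lay under the pseudocount. For Eno2 to Eno1 the medians were -3.81, -4.94 and -5.05, and for Slc2a3 to Slc2a1 they were -2.34, -0.99 and -1.71, in retina, UON and MON. The Slc16a3 to Slc16a1 ratio was -1.70 in retina, -3.32 in UON and -4.08 in MON, and its spread was widest in MON, from -4.61 to 0.53. These ratios carried a pseudocount of 1 FPKM and were described without a test.

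**Figure D3:**
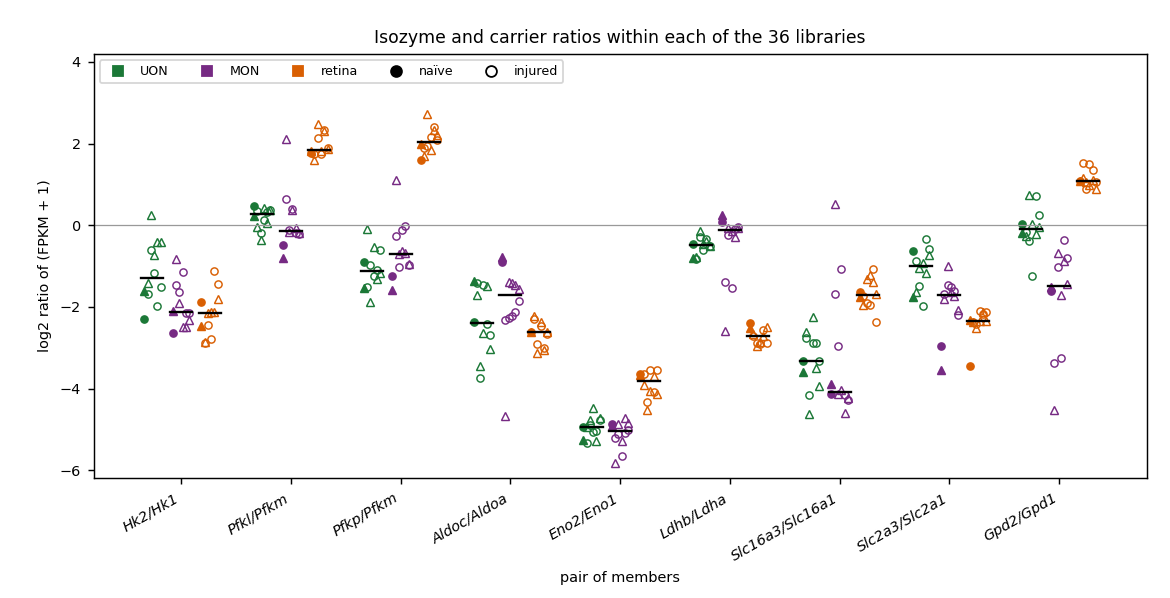
Log2 ratio of (FPKM + 1) for 9 pairs of members within each of the 36 libraries, with filled symbols for naïve, open symbols for injured, circles for female and triangles for male pools, and bars for the median of the 12 libraries of a tissue. Retina overlaps neither nerve region for Pfkp/Pfkm and Gpd2/Gpd1, while for Pfkl/Pfkm the male MON pool at crush 3D (2.11) lies within the retina range of 1.59 to 2.49, and for Ldhb/Ldha the lowest MON value (-2.60) lies within that of -2.97 to -2.38.

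Other genes of the pathway, from lists of neighbouring reactions, were read on the same tests. Of 16 other glucose and lactate carriers, 4 were higher and none lower in naïve UON than in MON, among them Slc2a13 (log2 fold change 3.77), a carrier of myo-inositol, and the lactate receptor Hcar1 (3.15), with a list median of 0.91. Of 12 glycogen genes, 2 were higher in UON than in MON, the muscle glycogen phosphorylase Pygm (4.03) and Pgm2 (1.75). Of 16 hypoxia response genes outside glycolysis, 5 were higher, led by Adm (2.5) and P4ha2 (1.77), and Egln1 was lower (-1.21), with a list median of 0.59. In the malate aspartate shuttle, the other route for NADH electrons, Slc25a13 was lower in UON than in MON (-2.83), and of 8 pentose phosphate genes Taldo1 (-1.36) and Tkt (-1.07) were lower. The 1 called of 14 tested other glycolytic isozymes was Bpgm (-1.38).

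Against retina, the malate aspartate shuttle had 1 gene higher and 2 lower of 7 in each nerve region. Got1 was lower in UON (log2 fold change -3.53) and MON (-2.95), Mdh1 was lower (-1.04 and -1.70), and Slc25a13 was higher (1.45 and 4.28). Of the genes of pyruvate entry, Pcx, which feeds pyruvate into the citric acid cycle as oxaloacetate, was higher in UON (4.29) and MON (3.17), Mpc1, a subunit of the mitochondrial pyruvate carrier, was higher (1.76 and 1.32), and Pdhb, the partner subunit of Pdha1, was lower (-1.21 and -1.40). Of 16 other carriers, 8 were higher and 1 lower in UON and 5 higher and 3 lower in MON, led in both by Slc2a10 (7.94 and 7.14).

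The injury comparison with calls among the members was MON 3D after crush. There Hk2, Slc16a3 and Gpd1 rose, and no member fell, where 4.26% of 19988 genes were called (3.61% higher). Slc16a3 went from 2.70 and 2.51 FPKM in the naïve pools to 14.0 and 27.7 (log2 fold change 2.89, SE 0.43, adjusted p = 0.0166). Hk2 went from 3.69 and 4.27 to 10.6 and 11.6 FPKM (1.49, SE 0.25, adjusted p = 0.0245). Gpd1 went from 95.5 and 69.4 to 274 and 621 FPKM (2.32, SE 0.48, adjusted p = 0.0423). In each of the 3 genes both crush pools lay above both naïve pools, and for Slc16a3 and Gpd1 the male crush pool was well above the female one. None of these calls survived the loss of a naïve MON pool: without the female pool the adjusted p were 0.116 (Slc16a3), 0.134 (Hk2) and 0.0945 (Gpd1), and without the male pool 0.103, 0.153 and 0.257. Gpd1 was also lost without the male crush pool (0.103).

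Other members moved in the same libraries without a call. Ldha had 439 and 574 FPKM against 192 and 176 in naïve MON (log2 fold change 1.39, SE 0.33, adjusted p = 0.063), and Pgam1 had 126 and 152 against 64.0 and 56.3 (1.17, SE 0.29, adjusted p = 0.0721). Pfkm had 24.6 and 9.31 FPKM against 45.6 and 38.4 (-1.45, SE 0.40, adjusted p = 0.0919), Aldoc had 134 and 27.8 against 376 and 407 (-2.55, SE 0.72, adjusted p = 0.0983), and Slc16a1 had 46.8 and 18.9 against 64.1 and 50.8. DESeq2 with the model of the study called 7 members (11.8% of genes), namely Hk2, Slc16a3, Gpd1, Ldha and Pgam1 higher and Pfkm and Pdk2 lower. The counts of called members without 1 library ran from 0 (without either naïve pool) to 8 (without either crush 2W pool, which share the fit), with 5 without the female and 2 without the male crush 3D pool. In CPM scaled by TMM, a normalization between libraries, both crush pools lay above both naïve pools for 12 members (37.5%, against 23.6% of all genes) and below for 8 (25%, against 29.9%). The member median log2 fold change was 0.21, and that of all genes was 0.00.

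**Figure D4:**
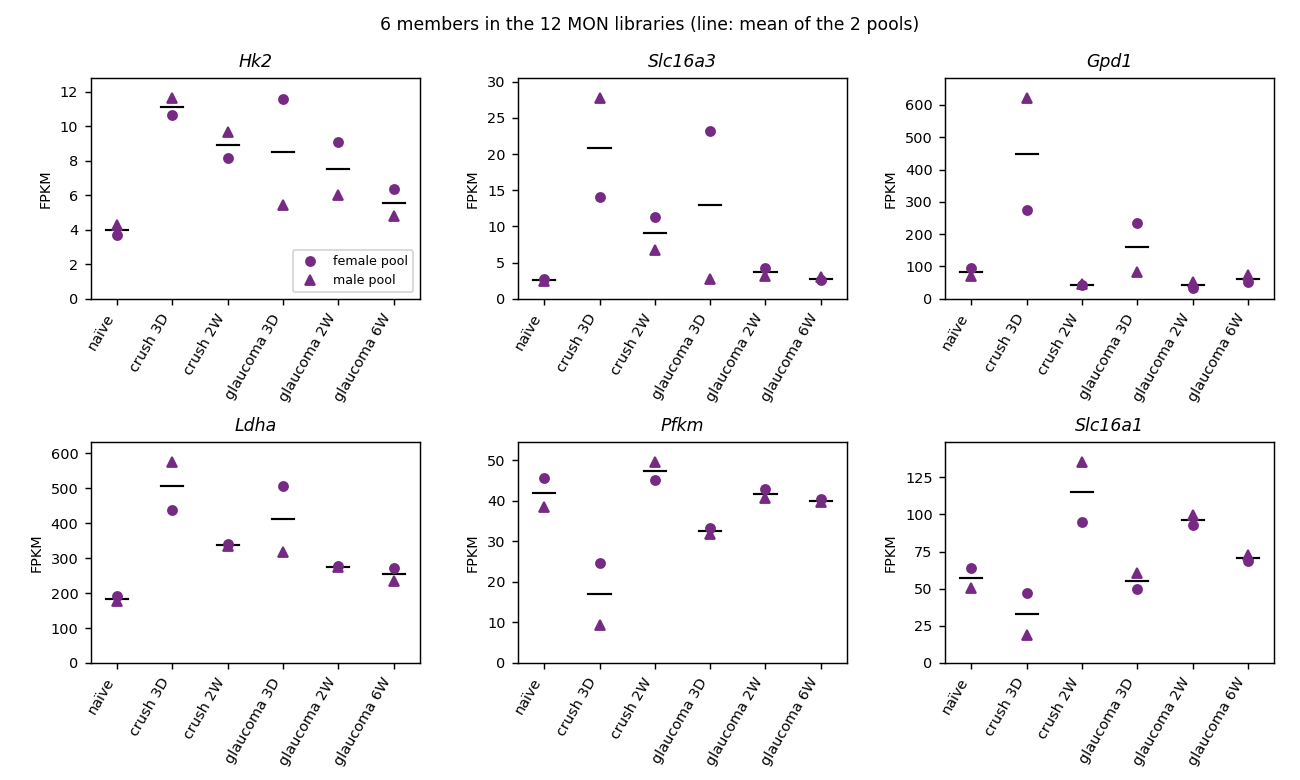
FPKM of 6 members in the 12 MON libraries by group (linear axes from 0), with a circle for the female pool, a triangle for the male pool and a bar for their mean. Hk2, Slc16a3, Gpd1 and Ldha peak at crush 3D and Pfkm and Slc16a1 are lowest there, and at glaucoma 3D the female pool lies nearer to crush than the male pool for Hk2, Slc16a3, Gpd1 and Ldha.

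Cell markers moved in the same MON libraries. The 12 microglia and macrophage markers had sums of 1595 to 1715 CPM in naïve MON and 7019 to 12410 CPM at crush 3D, with 5 of 12 called higher. The oligodendrocyte sum was 74804 to 84449 CPM at crush 3D against 122383 to 167239, with 0 of 12 called, and the astrocyte sum was 7618 to 13879 against 13121 to 18967, with 1 of 10 called lower. All 10 cell cycle genes rose, among them Cdk1 (log2 fold change 6.01) and Mki67 (5.98). Mki67 had 79.7 and 119 CPM at crush 3D against 2.34 and 1.3. Skeletal muscle markers summed to 3.62 to 11.9 CPM and adipocyte markers to 56.3 to 101 CPM, below the 185 to 224 CPM of naïve MON. The part of these cell changes in the member changes was not tested.

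Among the neighbouring lists at crush 3D, Hk3, the hexokinase of myeloid cells, rose (log2 fold change 3.85), and so did the regulator Pfkfb4 (1.42), the carriers Slc2a6 (2.44) and Slc16a6 (1.96), 2 of 12 and 2 of 14 tested genes of their lists. Of 16 hypoxia response genes, Mxi1 fell (-1.47), with a list median of 0.05. Of 12 glucocorticoid response genes, to which Gpd1 regulation in oligodendrocytes has been tied, Klf9 (-2.34) and Zbtb16 (-2.13) fell. Any link of these lists to the Gpd1 values was not tested.

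At 2W after crush no member was called in MON by edgeR, where 2.72% of genes were, with 6 members at an unadjusted p under 0.05 and 5 called by DESeq2 (Hk2, Pfkfb3, Slc16a3, Slc2a1 and Gpd1, against 8.46% of genes). The microglia and macrophage markers summed to 6273.5 to 15095 CPM there, with 6 of 12 called higher, and the oligodendrocyte markers to 44890.2 to 58558 CPM, with 1 of 12 called lower. Their part in the member values was not tested. Slc16a3 had 11.3 and 6.77 FPKM (log2 fold change 1.87 against naïve, adjusted p = 0.0646) and Hk2 8.19 and 9.70 (1.08, adjusted p = 0.0736), each above the naïve pools. Gpd1 had 41.9 and 44.3 FPKM, below the naïve 95.5 and 69.4 (-1.10, adjusted p = 0.292). Against crush 3D, Gpd1 had a log2 fold change of -3.42 (SE 0.49), and its adjusted p of 0.0635 just missed the limit. Over the 12 other settings, among them leaving out each library, this log2 fold change ran from -4.07 to -2.60. A fit without 1 library leaves 1 pool in its group, so such fits do not settle how firm the fall is. Slc16a1 had 95 and 135 FPKM at 2W against 46.8 and 18.9 at 3D (1.87, SE 0.47, adjusted p = 0.169), and Pfkm had 45.2 and 49.4 against 24.6 and 9.31 (1.55, SE 0.40, adjusted p = 0.181). For Gpd1, Slc16a1 and Pfkm the pools of the 2 times did not overlap. For 2W against 3D edgeR called 0 members (0.075% of genes, 0.015% higher), with 7 at an unadjusted p under 0.05 and 4 called by DESeq2 (5.35% of genes). Hk3 (3.10) and Slc2a6 (2.45) were still higher than naïve at 2W.

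In glaucoma MON no member was called by edgeR at any time, where 0% of 22960 genes were called. At 3D, 2W and 6W 11, 9 and 3 members had an unadjusted p under 0.05, and DESeq2 called 2 (Ldha and Slc16a3), 1 (Aldoc) and 0, against 2.06%, 2.38% and 0.29% of genes. At 3D the female pool held values close to crush and the male pool did not: Slc16a3 had 23.1 and 2.77 FPKM, Gpd1 235 and 83.3, and Hk2 11.6 and 5.46, in the female and male pool. The same female pool had 42.6 CPM of Mki67 and a microglia and macrophage sum of 5335 CPM, against 6.62 and 3453 in the male pool, and the part of these cells in the member values was not tested. Without the male pool the Slc16a3 log2 fold change was 2.80 (adjusted p = 0.0403), against 1.90 (adjusted p = 0.479) with both. That fit leaves 1 library at 3D and assumes that it varies like the other groups. Ldha had 507 and 318 FPKM at 3D, 278 and 274 at 2W, and 273 and 235 at 6W, all above the naïve 192 and 176. Aldoc had 181 and 295, 156 and 267, and 210.1 and 245 FPKM at the 3 times, all below the naïve 376 and 407, and Slc2a1 had 50.5 to 67.5 FPKM in the 6 glaucoma pools, below 80.4 and 78.4.

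In TMM-scaled CPM, which can order close pools otherwise than FPKM, more members lay above than below naïve in each glaucoma group of MON. Both pools were above both naïve pools for 13 members at 3D (40.6%, against 18.3% of all genes), 9 at 2W (28.1%, against 18.4%, and 17 with library totals alone) and 16 at 6W (50%, against 20.8%). They were below for 4 (12.5%, against 16.9%), 6 (18.8%, against 20.3%) and 2 (6.25%, against 18.9%). Hk2, Pfkp, Pfkfb3, Tpi1, Ldha, Slc16a3 and Slc2a3 were above at all 3 times and Aldoc and Slc2a1 below at all 3. In FPKM Pfkfb3 overlapped naïve (17.3 and 19.9) at 3D (25.1 and 18.9) and at 6W (18.4 and 16.2). Slc16a3 overlapped it in FPKM at 6W, with 2.59 and 2.94 against 2.70 and 2.51. Tpi1 at 3D was barely above, with 352.96 CPM in the male pool against 352.72 in the naïve female pool. The 3 times share the naïve pools, of which the male pool is shallow, so they are not 3 separate observations.

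In UON no member was called after crush or in glaucoma by edgeR, where at most 0.0281% of genes were called. At crush 3D and 2W and at glaucoma 3D, 2W and 6W, the members at an unadjusted p under 0.05 numbered 1, 7, 2, 1 and 1, and DESeq2 called 0, 2 (Hk1 and Aldoc, lower, against 2.47% of genes), 0, 0 and 0. Where it called 0 members, DESeq2 called 1.05% of genes at crush 3D and 0.635%, 0.282% and 0.155% in glaucoma at 3D, 2W and 6W. Between crush 2W and 3D edgeR called 0 members (0.00468% of genes), 4 had an unadjusted p under 0.05, and DESeq2 called Aldoc (1.87% of genes). At crush 3D in TMM-scaled CPM, both pools were below both naïve pools for 19 members (59.4%, against 19.8% of all genes), among them Hk1, Pfkl, Pfkm, Aldoa, Eno1 and Pkm, and above for Slc16a7 and Pdk3 (6.25%, against 16.9%). At glaucoma 3D they were below for 14 (43.8%, against 18%) and above for 3 (9.38%, against 16%). At crush 2W they were below for 17 (53.1%, against 24.9%) and above for 4 (12.5%, against 19.5%). At glaucoma 2W they were below for 15 (46.9%, against 20.4%), or 12 with median-of-ratios scaling and 5 with library totals alone, and above for 0 (15.3% of genes). At glaucoma 6W the balance was the reverse, with 11 above (34.4%, against 17.9%, and 7 with library totals alone) and 2 below (6.25%, against 13.8%). At crush 2W the blood markers of UON summed to 3649.7 to 4735 CPM against 233 to 548 in naïve UON, where 1 of 6 was at 0 in both pools. The microglia and macrophage markers summed to 4181 to 6822 CPM against 1134 to 1256. No gene of these lists was called, and their part in the member values was not tested.

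Single members of UON show the size of these shifts. Pfkl had 72.3 and 64.8 FPKM in naïve UON, 59.9 and 27.5 at crush 3D, 39.8 and 26.4 at crush 2W (log2 fold change -1.17, SE 0.35, adjusted p = 0.489), and 67.4 and 72.0 at glaucoma 6W. Pkm had 423 and 443 FPKM in naïve UON, 359.7 and 314 at crush 3D, 372 and 291 at crush 2W, and 325 and 393 at glaucoma 3D. Aldoc had 78.4 and 58.4 FPKM at crush 2W against 181 and 359 (-1.99, SE 0.42, adjusted p = 0.394). The male crush 2W pool, the one low in oligodendrocyte markers, had 0.0196 FPKM of Pfkfb2 and 11.7 of Gpd1, where its female partner had 3.69 and 38.7. Slc16a3 and Gpd1 did not follow MON: at crush 3D Slc16a3 had 7.21 and 4.55 FPKM against 5.68 and 4.45, and Gpd1 had 37.6 and 30.9 against 35.7 and 45.0.

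**Figure D5:**
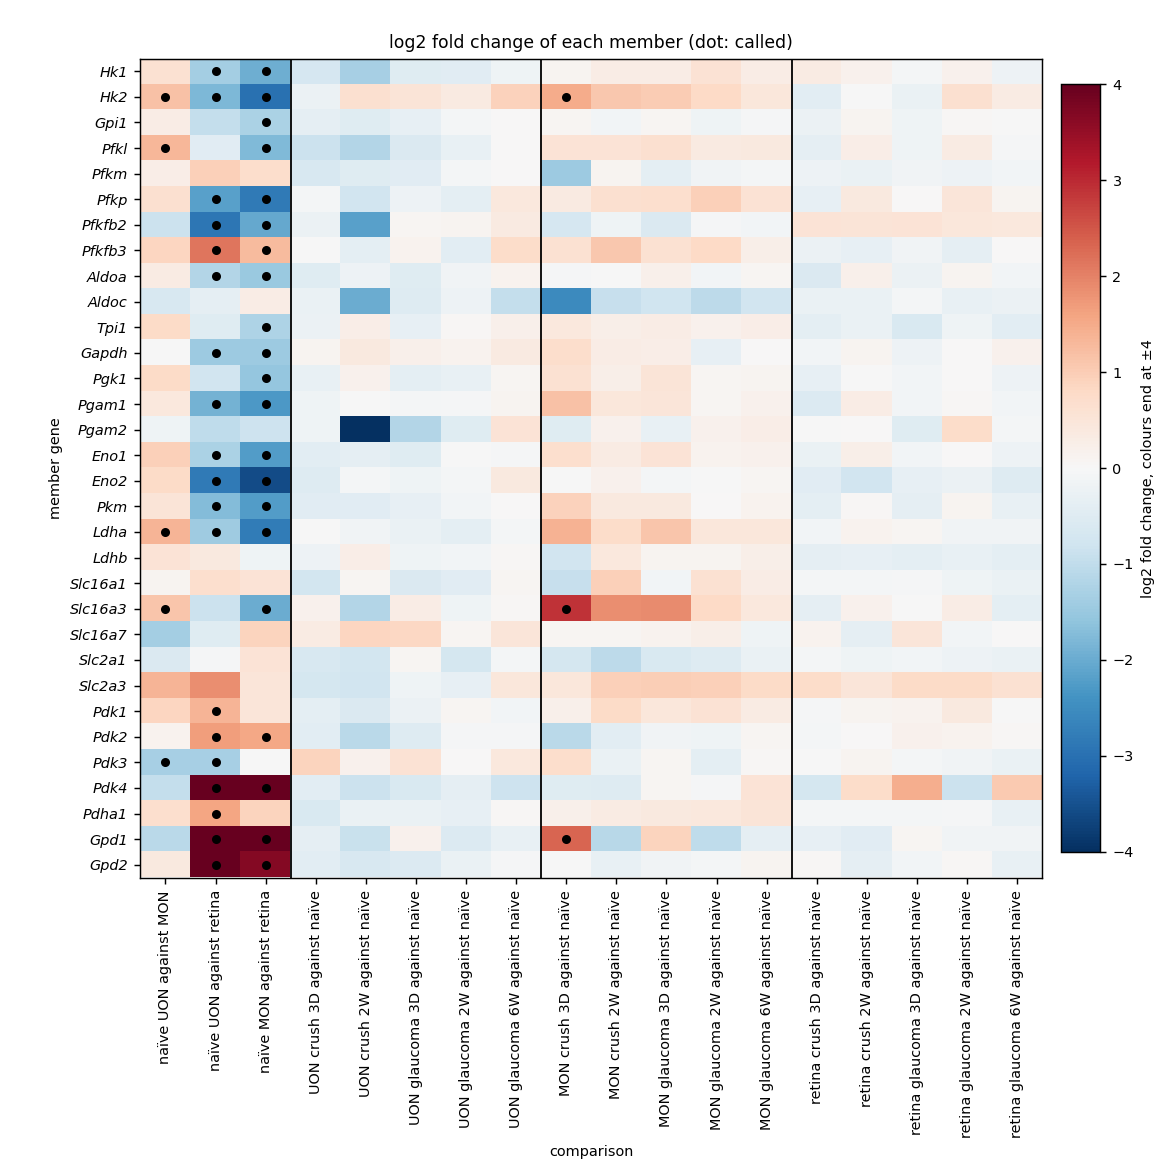
Log2 fold change of each member (rows) in the 3 naïve comparisons and the 15 comparisons of injured with naïve tissue (columns), with colours from -4 (blue) to 4 (red) and a dot where the gene was called. The dots fill the columns against retina and return after injury only in MON at crush 3D, for Hk2, Slc16a3 and Gpd1, by edgeR and with the limits of those 3 calls given in the text.

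Whether MON and UON responded differently to crush was tested as an interaction, with a term for sex. Since the MON and UON pools of 1 sex and treatment came from the same mice, the test was repeated with the mouse pool as a block in place of the sex term. At 3D the log2 difference in response (MON minus UON) was 2.72 for Slc16a3 (SE 0.61, adjusted p = 0.283), 2.73 for Gpd1 (SE 0.76, adjusted p = 0.427), 1.66 for Hk2 (SE 0.36, adjusted p = 0.28) and 1.37 for Ldha (SE 0.42, adjusted p = 0.496). edgeR called 0 members (0.012% of 25011 genes), 10 had an unadjusted p under 0.05, and DESeq2 called these 4 (1.61% of genes). At 2W the difference was 2.94 for Slc16a3 (SE 0.61, adjusted p = 0.146) and 1.62 for Hk1 (SE 0.44, adjusted p = 0.238), with 0 called by edgeR (0% of genes), 8 at an unadjusted p under 0.05 and 3 by DESeq2 (Hk1, Slc16a3 and Pdk1, against 2.99% of genes). Without the female UON crush 2W pool the Slc16a3 difference was 3.44 (adjusted p = 0.00873) and that of Hk1 1.98 (adjusted p = 0.0256), in a fit that leaves for this group only the male pool, which stood apart, and assumes that it varies like the other groups. With the mouse pool as a block edgeR again called 0 members at either time (0.04% and 0.092% of genes), with 9 and 7 at an unadjusted p under 0.05, and the Slc16a3 difference was 2.61 (SE 0.56, adjusted p = 0.147) at 3D and 2.97 (SE 0.55, adjusted p = 0.0712) at 2W.

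In retina no member was called at any time after crush or in glaucoma by edgeR or DESeq2, and edgeR called at most 0.313% of genes (crush 2W). DESeq2 called 0.677% and 1.51% of genes at crush 3D and 2W, and 0.748%, 0.442% and 0.5% in glaucoma at 3D, 2W and 6W. At crush 3D 15 members had an unadjusted p under 0.05, and 9 had one at crush 2W and 1, 4 and 2 in glaucoma at 3D, 2W and 6W. The share of all genes at that limit was not taken. At crush 3D both pools were below both naïve pools for 19 members (59.4%, against 19.1% of all genes) and above for 3 (Hk1, Pfkfb2 and Slc16a7, 9.38% against 19.6%). Aldoa had 1899 and 1948 FPKM at 3D against 2817 and 2668 in naïve retina (log2 fold change -0.59, SE 0.06, adjusted p = 0.0883). Pkm had 1544 and 1607 against 2029 and 1949 (-0.40, SE 0.06, adjusted p = 0.193) and Pgam1 had 296 and 299 against 377 and 441 (-0.55, SE 0.10, adjusted p = 0.277).

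At crush 2W these 3 genes were back at or above naïve, with 3045 and 3262 FPKM for Aldoa, 2041 and 1977 for Pkm, and 496 and 506 for Pgam1. Aldoa at 2W differed from 3D by a log2 fold change of 0.78 (SE 0.06, adjusted p = 0.025), past the p limit but under the fold limit, and was the only member so (0.0529% of genes passed the p limit at any fold). Pgam1 (0.83, adjusted p = 0.0718) and Eno1 (0.51, adjusted p = 0.0805) came next. Eno2, the enolase of neurons, had 140.3 and 118 FPKM at 2W against 193 and 181 in naïve retina (-0.76, SE 0.15, adjusted p = 0.139). It had both pools below both naïve pools in all 5 injury groups of retina, as did Ldhb, in FPKM and in TMM-scaled CPM. The 5 groups share the 2 naïve pools, so they are not 5 separate observations, and the share of all genes with this pattern was not taken. In TMM-scaled CPM both pools were above naïve for 10 members at crush 2W (31.2%, against 23.3% of all genes) and below for 8 (25%, against 17.3%).

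In glaucoma retina, in the same CPM, both pools were below naïve for 13 members at 6W (40.6%, against 21.5% of all genes), among them Tpi1, Pgk1, Eno1, Eno2, Pkm, Ldha and Ldhb, and above for Hk2, Pfkfb2 and Gapdh (9.38%, against 21.6%). At 3D they were above for 3 (9.38%, against 18.2%) and below for 3 (9.38%, against 18.4%), and at 2W above for 7 (21.9%, against 22.1%) and below for 6 (18.8%, against 17.2%). Hk2 had 70.4 and 64.8 FPKM at 2W and 53.5 and 56.4 at 6W against 43.0 and 39.9 in naïve retina, with a log2 fold change of 0.65 at 2W (SE 0.16, adjusted p = 0.704). Tpi1 had 540.1 and 491 FPKM at 3D and 539 and 585 at 6W against 694 and 672 in naïve retina, but 718 and 546 at 2W, where only TMM-scaled CPM put both pools below naïve. Photoreceptor markers summed to 57989 to 61221 CPM at glaucoma 6W and 59522 to 59661 at crush 3D, against 66293 to 66732 in naïve retina, and their part in the member values was not tested.

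The models were also compared directly at equal times. Crush against glaucoma gave 0 called members by edgeR in each tissue at 3D and 2W. Of all genes edgeR called at most 0.113%, with 0.0418% in UON at 2W. From 0 to 6 members had an unadjusted p under 0.05. DESeq2 called Aldoc and Pgam2 in UON at 2W (2.43% of genes), both lower after crush, and 0 members in the other 5 comparisons. Its share of all genes there was 0.0534% in UON at 3D, 3.52% and 1.8% in MON at 3D and 2W, and 0.172% and 0.797% in retina. The Pgam2 call lies near the floor, with 4 and 0 counts at crush 2W against 10 and 27 at glaucoma 2W in the female and male UON pools. In MON at 3D, Pfkm was 24.6 and 9.31 FPKM after crush and 33.2 and 31.9 in glaucoma (log2 fold change -1.11, SE 0.34, adjusted p = 0.357), and Gpd1 was 274 and 621 against 235 and 83.3 (1.37, SE 0.54, adjusted p = 0.432).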

How the data were processed

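Per the study's methods, paired reads were aligned to GRCm38 with HISAT2 2.2.1 and assigned to Gencode genes with StringTie 1.3.0. The authors deposited estimated counts as whole numbers, made from StringTie's coverage, together with FPKM and TPM values that the authors took from StringTie. Totals of such counts (16.2 M to 78.1 M) are not numbers of read pairs. Strandedness was not given in the sources used here, so antisense and overlapping genes cannot be told apart. FPKM just under 0 (15 values) were set to 0, and a second, minor Aldoa identifier was left out.

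Counts were tested with edgeR 4.0.16 in R 4.3.3 (quasi-likelihood test, TMM scaling, filterByExpr at min.count 10 and min.total.count 15, terms for group and sex, Benjamini-Hochberg adjustment over all genes tested). Naïve tissues were fitted in 1 model, and injuries in 1 model per tissue and injury type. Called genes had changes over 1 on the log2 scale and adjusted p below 0.05. For counts of members at an unadjusted p under 0.05 the share over all genes was not taken, so they cannot be ranked between comparisons. The fits were tested on simulated data. DESeq2 1.42.0 with the study's model, median-of-ratios scaling, no filter, no sex term, 1 fit of 36 libraries, no fold limit and leaving out each library (96 fits) were alternatives. Other scalings of the counts of non-overlapping pools were added after seeing the data. Levels and ratios used FPKM with a pseudocount of 1.

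The members and gene lists were chosen with earlier results of these data known. All 32 members are described. Other genes were named as the first 3 of a list, or as up to 2 called genes per direction with the largest fold, and exceptions are stated. The 3 tissues of 1 sex and treatment came from the same mice, so the sex term paired the naïve tissues (correlations of same-sex deviations 0.024 to 0.057), and for the crush responses of MON and UON the mouse pool as block was added after seeing the data (correlations 0.054, 0.248 and -0.012 in naïve, crush 3D and crush 2W). Pools of different treatments shared only sex. The authors' comparisons were not used.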

Additional observations from a re-analysis of the deposited data

Results flagged for a closer look

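Members whose 2 pools both lay above both naïve pools in 1 tissue and below them in another at the same time after the same injury were singled out, in TMM-scaled CPM. Of these differences between tissues only those of MON and UON after crush were tested, as the interaction in which edgeR called no member, and comparisons within a tissue share its naïve pools. The numbers below are out of 32 members, and several lie near or under the share of all genes given beside them. FPKM put some of these pools in another order, with examples given, so the lists hold for TMM-scaled CPM only.

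At crush 3D, MON and retina moved apart for 10 members, against 8.45% of all genes. Hk2, Pfkfb3, Tpi1, Pgk1, Pgam1, Eno1, Pkm, Ldha and Slc16a3 were above naïve in MON and below it in retina, and Pfkfb2 was the reverse. In FPKM Pfkfb3 overlapped naïve in both tissues, and Ldha did so in retina. For MON and UON the number was 5 (6.3% of genes), with Pgk1, Pgam1, Eno1, Pkm and Gpd1 above naïve in MON and below it in UON. In FPKM the UON pools overlapped naïve for Pgam1 (85.3 and 75.2 against 82.2 and 86.9) and Gpd1 (37.6 and 30.9 against 35.7 and 45.0). UON and retina did so for 1 member (6.86% of genes), Hk1, which was below naïve in UON and above it in retina. At crush 2W Pkm, Slc16a3 and Pdk1 (3 of 32 members, near the 9.25% of all genes) were above naïve in MON and below it in UON. The number was 4 for MON and retina (8.7% of genes), with Pfkfb3, Tpi1 and Ldhb above naïve in MON and Gpi1 below it. In FPKM both retina pools of Pfkfb3 at 2W lay above naïve, with 8.75 and 10.8 against 6.74 and 8.04. Gpi1 in MON overlapped naïve in FPKM, with 92.5 and 89.3 against 83.9 and 92.4. For UON and retina it was 7 (8.1%), with Tpi1 and Ldhb above naïve in UON and Gpi1, Pfkl, Pfkp, Eno1 and Pdk1 below it.

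At glaucoma 3D, 8 members were above naïve in MON and below it in UON (6.05% of genes in either order), namely Gpi1, Pfkl, Aldoa, Tpi1, Pgk1, Eno1, Pkm and Ldha. MON and retina differed in this way for 2 members (4.43%), Tpi1 and Pfkfb2, and UON and retina for 1 (6.04%), Pdk2. At glaucoma 2W, 6 members were above naïve in MON and below it in UON (6.18%), namely Hk1, Pfkp, Pfkfb3, Ldha, Slc16a1 and Slc2a3. Pfkfb3 and Tpi1 were the 2 members above naïve in MON and below it in retina (6.77%), and Pfkl, Pfkp and Pkm were the 3 members below naïve in UON and above it in retina (4.59%). In FPKM both retina pools of Pfkfb3 at 2W lay above naïve instead, with 8.50 and 11.5 against 6.74 and 8.04. The UON pools of Pfkp and Pkm overlapped naïve in FPKM. At glaucoma 6W, 8 members were above naïve in MON and below it in retina (12.3%), namely Tpi1, Pgk1, Eno1, Ldha, Ldhb, Slc16a1, Slc16a3 and Pdha1. In FPKM Slc16a3 overlapped naïve in MON, and Eno1 did so in retina. The number for UON and retina was 4 (8.12%), with Tpi1, Eno2, Ldhb and Pdk3 above naïve in UON, and for MON and UON it was 0 (4.66%).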

How the results depend on the processing

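With 2 pools a group, single libraries limit most calls. Over 29 comparisons, the number of called members stayed within 1.5 times its value in 29 with median-of-ratios scaling, 28 without a fold limit, 26 without the sex term, 24 without a filter, 23 in the fit of 36 libraries and 19 with DESeq2, and no named member changed direction while called. For MON crush 3D the 3 calls became 8 in the fit of 36 libraries, 7 with DESeq2, 7 without a filter and 5 without the sex term. For MON crush 2W, 0 became 2, 5, 1 and 2, and for MON crush 2W against 3D 0 became 4, 4, 4 and 1, in the same order. DESeq2 gave 2 in UON crush 2W, 1 in UON crush 2W against 3D, 2 in UON crush against glaucoma at 2W, 2 in MON glaucoma 3D, 1 in MON glaucoma 2W, and 4 and 3 for the MON to UON difference in crush response at 3D and 2W, where 0 had been called. The fit of 36 libraries gave 1 in UON crush 2W, 1 in UON crush against glaucoma at 2W and 1 for the difference at 2W. Without a filter that difference gave 3 at 3D and 2 at 2W, and without a fold limit retina crush 2W against 3D gave 1. The cause was not tested.

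Leaving out 1 library gave 3 (without the male UON pool) to 9 (without the female MON pool) calls for naïve UON against MON, 15 to 21 for UON and 17 to 22 for MON against retina. It gave 0 to 8 for MON crush 3D, 0 to 3 for MON crush 2W, 0 to 7 for MON crush 2W against 3D, 0 to 4 for the crush difference at 2W and 0 to 2 for MON crush against glaucoma at 3D. The range was 0 to 1 for MON glaucoma 3D, UON crush 2W, UON crush 2W against 3D, UON crush against glaucoma at 2W, retina crush 3D and retina crush 2W, and 0 elsewhere.

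The sex term acts as the replicate block, and it pairs pools of the same mice among naïve tissues. For the crush responses of MON and UON, whose pools also share mice, the mouse pool as block, chosen after seeing the data, left the calls at 0 and 0. Without this block naïve calls stayed within 1.5 times, and the counts that moved are the 5, 2 and 1 of MON given above. Same-sex deviations correlated between -0.317 and 0.182 across injury groups.

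In TPM the median log2 difference of member levels was 0.60 for UON to MON (0.48 in FPKM), -0.95 for UON to retina (-1.04) and -1.46 for MON to retina (-1.36). With a pseudocount of 0.1 the log2 ratio of Pgam2 to Pgam1 was -6.68, -5.96 and -7.44 in UON, MON and retina (-5.60, -5.12 and -6.93 with 1). Gpd2 to Gpd1 in retina was 1.80 with 0.1 and 1.42 in TPM (1.09). Pdk4 to Pdk2 was -4.90 in UON (-4.30), and in retina -7.19 with 0.1 and -5.74 in TPM (-4.83).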
